A study of Homo sapiens with 9 samples.

Results

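The sites described here are RAD21 peaks of wild-type and ZNF143 knockout HEC-1-B cells, an established human uterine adenocarcinoma line, mapped by ChIP-nexus. In this assay the immunoprecipitated DNA is trimmed by exonuclease until the bound protein blocks it, which makes peaks narrow and places their summit, the position of highest read count, near the contact. Peaks were taken on chromosomes 1 to 22 and X when their −log10 q, the authors' measure of confidence after adjustment over the genome, was at least 5. This gave 45559 wild-type and 56861 knockout RAD21 peaks, 102420 of the 358587 peaks in the 9 lists of the series. Each genotype had 1 RAD21 library, made with the same antibody. The wild-type cells carried no labelled change, and the knockout cells are labelled as lacking ZNF143. The number of clones behind the knockout cells, and how the knockout was made, are not given in the sources used here. No ZNF143 profile of these knockout cells was used here, and their genotype rests on the label alone. CTCF peaks of both genotypes and ZNF143 peaks of wild-type cells, with 1 library each, served as markers of the sites. CTCF and ZNF143 lists of cells with an auxin-inducible degron on CTCF, taken at 0 h of auxin, were used as alternatives. With 1 library a group no difference between genotypes has a replicate check or a test, and intervals below are 95% intervals that cover counting error over peaks only.

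RAD21 is the subunit that closes the ring of cohesin, the complex that holds sister chromatids together and extrudes loops of chromatin. CTCF, a zinc-finger protein, halts moving cohesin at its binding sites, which places most stable RAD21 peaks at CTCF sites and at the anchors of chromatin loops. ZNF143 is another zinc-finger protein that binds promoters and has been mapped at many CTCF and cohesin sites. The comparison asks where RAD21 is found when ZNF143 is missing.

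The knockout library had more reads at its summits and in its background, and its list goes down to another q than that of wild type. Read counts at the summits and the local background under each peak were recovered from the deposited fold enrichment and p-values. Wild-type summits had a median of 18 reads and knockout summits 28, and the median local background was 0.332 and 0.953 reads. The highest count in a list acted as a ceiling, which was 42 reads in wild type, reached by 1.17% of peaks, and 44 in the knockout, reached by 12.3%. All knockout peaks had a −log10 q of at least 5.00, whereas 3347 wild-type peaks lay below 5 and were left out. The wild-type peak just inside the threshold had a −log10 q of 5.00, a fold enrichment of 5.46 and a width of 56 bp. The one just outside had 4.99, 5.70 and 43 bp. The knockout peak with the lowest −log10 q had a fold enrichment of 4.58 and a width of 22 bp.

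Most wild-type RAD21 sites were found again in the knockout, and the knockout list held many further sites. A knockout peak overlapped 43140 of the 45559 wild-type peaks by at least 1 bp, or 94.7% (94.5 to 94.9), and 2419 peaks, 5.31%, were seen in wild type alone. In the other direction 13850 of the 56861 knockout peaks, 24.4% (24.0 to 24.7), had no wild-type counterpart. CTCF peaks of the same cells gave nearly the same shares, with 5.44% of the wild-type peaks absent from the knockout and 22.6% of the knockout peaks absent from wild type. The share of knockout peaks absent from wild type depended on list length. It was 12.5% when each list was held to its 45559 strongest peaks, and 87.8% of wild-type peaks were then kept. The part of the greater knockout depth in these shares was not tested.

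Knockout-only sites were in part sites that lay below the threshold in wild type. Of the 13850 knockout-only peaks, 1953 (14.1%, 13.5 to 14.7) overlapped a wild-type peak with a −log10 q under 5. Of the 3347 wild-type peaks under the threshold, 2006 (59.9%, 58.3 to 61.6) overlapped a knockout peak. The remaining 11897 knockout-only peaks, 20.9% of the knockout list, met no wild-type peak of any deposited q. Knockout-only peaks lay at a wide range of distances from wild-type sites. Wild-type summits of any deposited q were counted for this, including those of the peaks under the threshold that 1953 knockout-only peaks overlapped. The nearest wild-type summit was within 200 bp for 18.0% of them, at 200 to 1000 bp for 6.09%, at 1 to 10 kb for 24.4% and farther away for 51.5%, with a median of 10719 bp. For wild-type-only peaks the shares were 9.96%, 10.9%, 32.4% and 46.7%, and the median distance to a knockout summit was 8815 bp. These are not a like comparison, because the knockout list has no peaks under the threshold and wild-type-only peaks overlap none of its peaks by definition. For scale, shared peaks lay a median of 15337 bp in wild type and 12518 bp in the knockout from the next summit of their own list.

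Peaks of 1 list alone were weak and shared peaks were strong. Fold enrichment is the summit count over the local background, each with 1 read added, and it was also turned into a rank percentile within its list, with 100 the strongest. Shared peaks had a median fold enrichment of 15.5 in wild type and 16.2 in the knockout. Wild-type-only peaks had a median of 6.43 and knockout-only peaks 8.12, at rank percentiles of 8.57 and 16.6. When each list was cut into 5 groups of equal size by fold enrichment (quintiles), the weakest quintile of the wild-type list held 86.0% of the wild-type-only peaks and 16.3% of the shared ones. The weakest quintile of the knockout list held 59.1% of the knockout-only peaks and 7.40% of the shared ones. No wild-type-only peak lay above the median fold enrichment of its list, where 22779 peaks were shared, and their highest rank percentile was 47.2. Knockout-only peaks reached higher, to a rank percentile of 89.1, with 282 (2.04%) above the median of the list and 6 in the strongest quintile.

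With 10 such groups, or deciles, the share found in the other list rose with strength. In wild type 69.97% of the weakest decile was found in the knockout, followed by 84.4%, 93.9% and 98.8% of the next deciles. The decile above these lacked 4 peaks in the knockout, and the 5 strongest deciles lacked 0. In the knockout the rise was slower, with 24.9% of the weakest decile found in wild type, then 31.1%, 47.9%, 70.1%, 87.4% and 96.4% of the next ones. The share was 99.0% or more in the 4 strongest deciles.

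CTCF at the site went with a higher share within deciles of strength. In the weakest wild-type decile, RAD21 peaks at a wild-type CTCF peak were found again in 83.1% of cases (81.5 to 84.6) and those at no CTCF peak in 57.4% (55.4 to 59.4). The corresponding shares were 92.8% and 72.4% in the next decile and 97.4% and 85.0% in the one above it. Knockout RAD21 peaks at a knockout CTCF peak were likewise found in wild type more often than those without, with 33.7% against 15.95% in the weakest decile and 88.6% against 60.3% in decile 5. The intervals of peaks with and without CTCF did not overlap in these deciles.

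**Figure D1:**
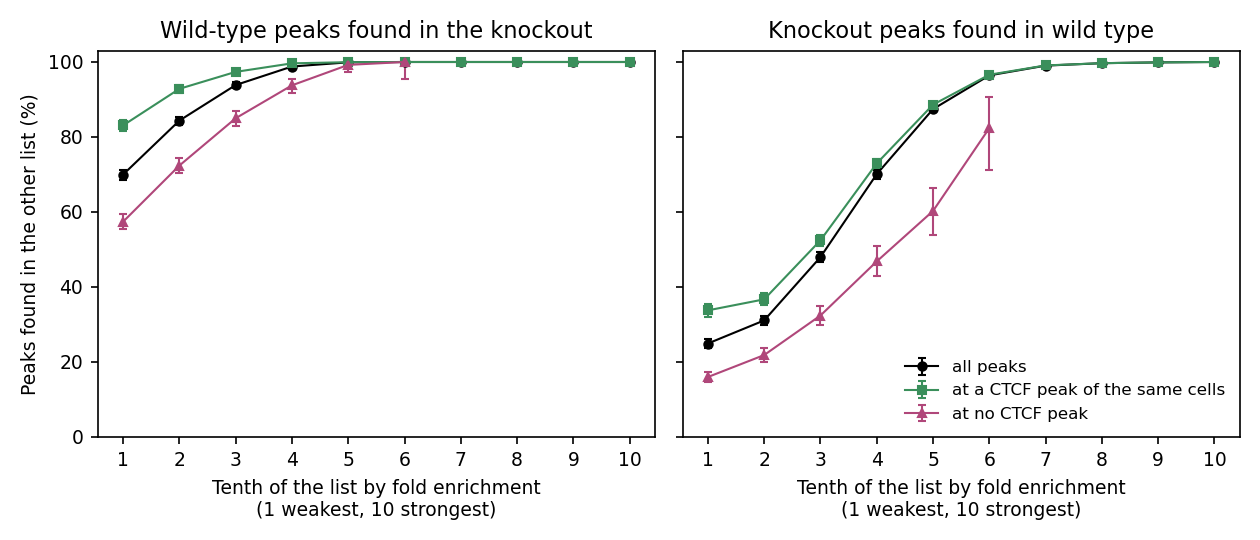
Share of RAD21 peaks (%) found in the other list, by decile of fold enrichment from 1 (weakest) to 10 (strongest), for all peaks and for those with and without a CTCF peak of the same cells, with 95% intervals. Wild-type peaks rise from 69.97% to 100% and knockout peaks from 24.9% to 100%, and points at no CTCF peak lie below those at a CTCF peak in the weaker deciles.

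The widths of the peaks separated the classes too. Shared peaks had a median width of 112 bp (111 to 113) in wild type, with quartiles of 71 and 154 bp. In the knockout the median was 144 bp (143 to 145), with quartiles of 93 and 194 bp. Wild-type-only peaks were the narrowest, with a median of 29 bp (28 to 30) and quartiles of 22 and 44 bp, close to the shortest wild-type peak of 21 bp. Knockout-only peaks had a median of 46 bp (46 to 47) and quartiles of 31 and 65 bp. Width and fold enrichment both follow the number of reads at a site, so they are not separate descriptions of the classes.

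**Figure D2:**
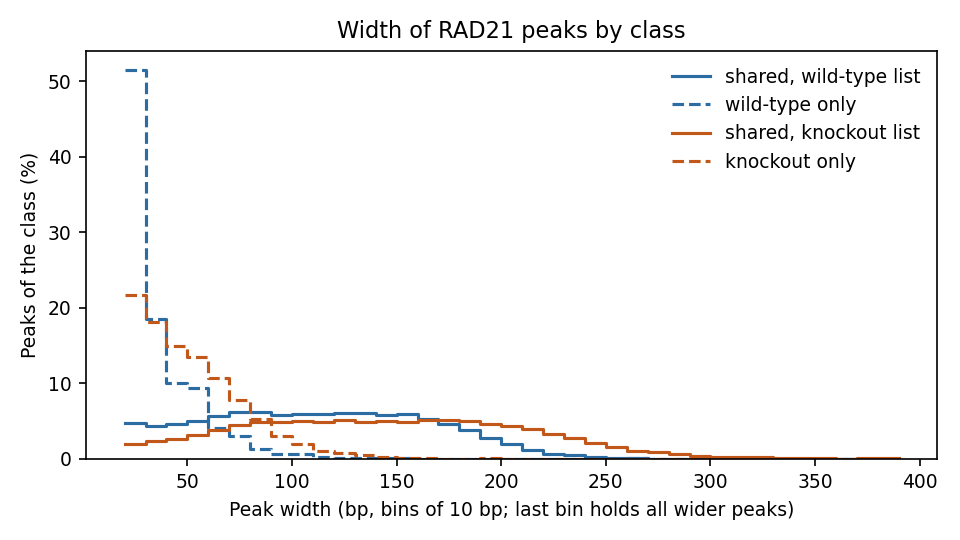
Distribution of RAD21 peak width (bp, bins of 10 bp) as a share (%) of the shared peaks of each list, the wild-type-only peaks and the knockout-only peaks. Peaks of 1 list alone crowd at the shortest widths, with medians of 29 and 46 bp, whereas shared peaks spread around 112 bp in wild type and 144 bp in the knockout.

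Sites found in both genotypes were next followed one to one. There were 42803 pairs in which 1 wild-type peak overlapped 1 knockout peak and no other, which covered 99.2% of the shared wild-type peaks. Splitting and merging were rare, with 28 wild-type peaks that overlapped more than 1 knockout peak and 152 knockout peaks that overlapped more than 1 wild-type peak. At the 42803 pairs the median summit count was 21 reads in wild type and 35 in the knockout. The median local background was 0.353 and 1.05 reads, and the part of depth in the widths below was not tested. The knockout peak was the wider one in 83.4% of pairs, the narrower in 15.5% and equal in 1.05%, with a median difference of 30 bp. When the pairs were cut into quintiles by wild-type fold enrichment the difference grew with strength, from 18 bp in the weakest through 21, 29 and 37 bp to 45 bp in the strongest. It was 36 bp where ZNF143 had a peak in wild type and 22 bp elsewhere. Within quintiles the gap between these sets was smaller, and in the weakest it was in the opposite direction. From the weakest to the strongest quintile the difference was 13, 22, 30, 38 and 45 bp with ZNF143 and 19, 20, 26, 30 and 33 bp without.

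RAD21 summits stayed close to their wild-type positions in the knockout. The median distance between paired summits was 8 bp (8 to 8), with quartiles of 3 and 17 bp. The 95th percentile was 40 bp and the largest distance 316 bp. Summits coincided exactly in 4.39% of pairs and lay within 10 bp in 60.2%. The shift had no preferred direction along the chromosome, with a signed median of 0 bp. Sites were not oriented by their DNA sequence, so shifts that follow the direction of each site could cancel in this median. The distance was smaller at stronger sites, with medians of 10, 8, 7, 7 and 6 bp from the weakest to the strongest wild-type quintile. The median was 7 bp where wild-type cells had a ZNF143 peak and 8 bp elsewhere. Within quintiles the order was the other way in the stronger ones. From the weakest to the strongest, the median shift was 9, 9, 8, 7 and 6 bp at ZNF143 sites and 11, 8, 6, 5 and 4 bp at sites without ZNF143. The intervals did not overlap in the weakest quintile, at 8 to 9 against 10 to 11 bp, or in the 2 strongest, at 7 to 7 against 5 to 6 bp and 6 to 7 against 3 to 4 bp. The strongest quintile had 8210 sites with ZNF143 and 351 without, and its medians were the same when sites at either ceiling were left out. The sites left still had median knockout counts of 42 and 40 reads, near the ceiling of 44. Leaving out sites at the ceiling thus cannot decide its part in the shift. The sets still differed within it, with median wild-type widths of 169 and 143 bp and local backgrounds of 0.525 and 0.397 reads. The part of width and background in the shift was not tested.

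**Figure D3:**
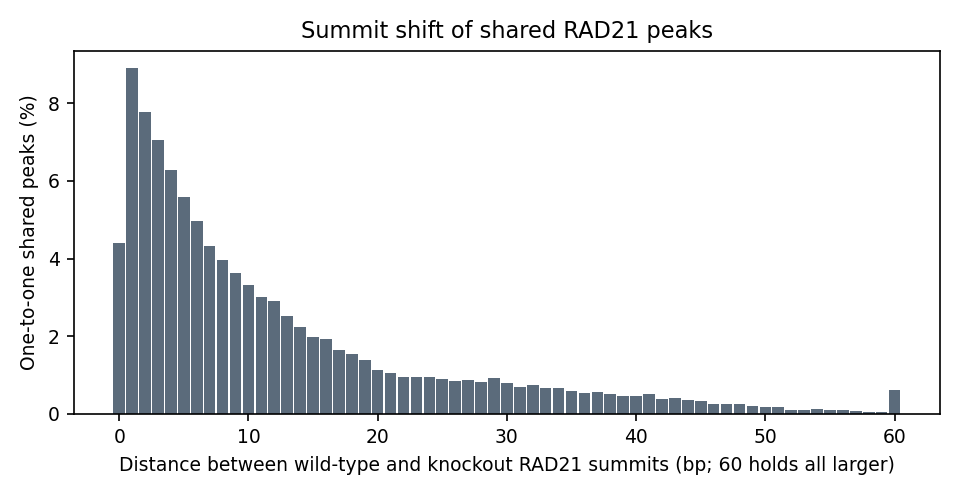
Distance (bp) between the wild-type and knockout RAD21 summits of the 42803 one-to-one shared sites, as a share (%) of sites per base pair, with distances of 60 bp or more in the last bar. Most sites lie near 0, with 60.2% within 10 bp and a median of 8 bp.

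The RAD21 shift was of the same size as that of CTCF. At 37772 sites with a one-to-one pair for both proteins, the median shift between genotypes was 8 bp for RAD21 and 7 bp for CTCF. The RAD21 shift was the larger at 49.6% of these sites, the CTCF shift at 45.9%, and they were equal at 4.45%. Measured from the wild-type CTCF summit as a fixed point, the wild-type RAD21 summit lay a median 15 bp away and the knockout RAD21 summit 14 bp away. The knockout summit was nearer at 49.8% of sites, farther at 44.7% and equally far at 5.56%.

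The order of shared sites by strength was partly kept. Across the pairs the Spearman correlation of fold enrichment was 0.73 and that of width 0.87, and the former was 0.78 over the 35864 pairs with neither peak at the ceiling. These are descriptions across sites of 2 libraries. Of the sites in the top quartile of the wild-type pairs, 50.6% were in the top quartile of the knockout, 38.3% in the quartile below, 10.99% in the next and 0.112% (12 sites) in the bottom quartile. Of those in the bottom quartile, 71.7% stayed there and 0.953% (102 sites) were in the top quartile of the knockout.

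Rank percentiles fell at the strongest shared sites, most of which had ZNF143. The wild-type quintiles used here were cut by the same values that the change is measured from. This choice alone favours a fall in the strongest quintile and a rise in the weakest, and its part was not tested. Over all pairs the median change, knockout minus wild type, was -4.89 points where ZNF143 had a wild-type peak and 4.34 points elsewhere, but these sets differ in strength. From the weakest to the strongest wild-type quintile the change was 0.23, 1.56, 4.46, -2.13 and -15.2 points with ZNF143 and 5.03, 1.63, 7.22, 7.93 and -3.02 points without. Intervals of the sets overlapped in the next to weakest quintile and not in the other 4. In the strongest quintile they were -15.7 to -14.6 with ZNF143 and -5.08 to -0.78 without. The ceiling of the knockout library moved with this difference, since 56.0% of the ZNF143 sites in the strongest quintile were at it against 15.1% of the others. Without sites at either ceiling the changes were 0.84, 1.74, 6.37, 4.13 and -6.40 points with ZNF143 and 5.03, 1.64, 7.31, 8.26 and -1.93 (-4.42 to 0.23) without, so that both sets then had the same sign in each quintile. Intervals still did not overlap in the weakest quintile, at 0.21 to 1.65 with ZNF143 against 4.78 to 5.38 without. The same held in the next to strongest, at 3.40 to 4.88 against 6.46 to 9.67. In the strongest it was -7.14 to -5.70 against -4.42 to 0.23. Sites left in the strongest quintile still had median knockout counts of 42 reads with ZNF143 and 40 without, near the ceiling.

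The strongest shared sites are given as single positions, all in hg19. They were chosen for a high wild-type fold enrichment, so a lower value in the knockout is no separate result. The highest wild-type fold enrichment, 30.2, was at chrX:107315353-107315479, where the knockout peak had 23.7. Its summit was 3 bp away and its width went from 127 to 192 bp, with 40 reads at the wild-type and 44 at the knockout summit. The site at chr3:69969285-69969382 had 30.1 and 26.3, a shift of 15 bp and widths of 98 and 91 bp. The site at chrX:21498110-21498276 had 30.0 and 23.2, a shift of 3 bp and widths of 167 and 213 bp. All 3 lay at CTCF peaks of both genotypes and at a wild-type ZNF143 peak, and the first and second were at the ceiling in the knockout.

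Large shifts were rare among strong sites. Of 7346 pairs in the top quartile of both lists, with a median shift of 6 bp, 44 had moved by more than 50 bp and 1 by more than 100 bp. That one was chr14:34318417-34318682, whose knockout summit lay 149 bp away in a peak of 302 bp against 266 bp in wild type. Its fold enrichments were 22.4 and 18.3. The next was chr17:7766087-7766227, with a shift of 67 bp, fold enrichments of 21.9 and 18.2, and widths of 141 and 171 bp. Both lay at CTCF peaks of both genotypes and at a ZNF143 peak.

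CTCF marked most shared RAD21 sites and fewer of those in 1 list alone. Of the shared wild-type peaks, 88.9% lay at a wild-type CTCF peak and 58.2% at a ZNF143 peak. Of the wild-type-only peaks, 27.7% lay at a wild-type CTCF peak and 14.7% at a ZNF143 peak. Of the knockout-only peaks, 61.3% lay at a knockout CTCF peak and 8.47% at a position bound by ZNF143 in wild type. These classes differ in strength, since the weakest quintile of the wild-type list held 86.0% of the wild-type-only and 16.3% of the shared peaks. Sites with ZNF143 were mostly strong, and the part of strength in these shares was not tested. Shares of wild-type peaks kept within quintiles are given below. Several of these shares moved with the choices made. The wild-type-only share at CTCF was 52.5% when overlap had to cover 50% of both peaks, and 44.1% with lists of equal length. The wild-type-only share at ZNF143 was 23.9% when summits had to lie within 50 bp, and 22.8% with lists of equal length. The knockout-only share at CTCF was 38.6% against the wild-type CTCF list. Against the CTCF list of degron cells at 0 h of auxin the shares were 65.3% for shared, 8.85% for wild-type-only and 6.10% for knockout-only peaks, the opposite order of the last classes. The share of knockout-only peaks at ZNF143 was below that of shared peaks under each alternative run.

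**Figure D4:**
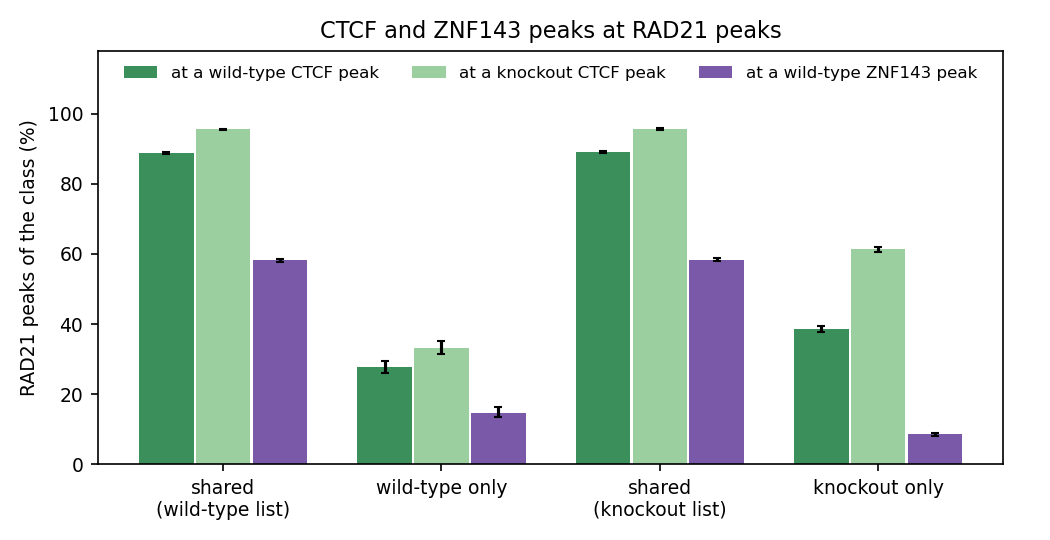
Share (%) of RAD21 peaks in each class that overlapped a CTCF peak of wild-type or knockout cells or a ZNF143 peak of wild-type cells, with bars starting at 0 and 95% intervals as lines. Shared peaks reach 88.9% or more for either CTCF list, and knockout-only peaks have 61.3% at knockout CTCF but 8.47% at ZNF143.

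Some knockout-only RAD21 sites lay where CTCF was found in the knockout alone. The CTCF libraries differed in depth too, with a median of 20 summit reads in wild type and 29 in the knockout. Their median local background was 0.413 and 0.788 reads, and 1012 wild-type CTCF peaks under the threshold were left out. The part of CTCF depth in the shares below was not tested. CTCF peaks of both genotypes were present at 5035 knockout-only RAD21 peaks (36.4%), a CTCF peak of the knockout alone at 3457 (24.96%), one of wild type alone at 313 (2.26%) and neither at 5045 (36.4%). For the shared wild-type peaks these shares were 88.4%, 7.11%, 0.503% and 3.96%. Among the wild-type-only RAD21 peaks 510 (21.1%) had CTCF in both genotypes, 295 (12.2%) in the knockout alone, 160 (6.61%) in wild type alone and 1454 (60.1%) in neither. Of the 160 sites where CTCF too was seen in wild type alone, 56.3% (48.2 to 64.1) lay at a ZNF143 peak. These were among the weakest wild-type sites, with a median rank percentile of 0.667, and 85 of them had a local background above 5 times the median of the list. The share at ZNF143 was 77.6% (67.3 to 86.0) in those 85 and 32.0% (21.7 to 43.8) in the other 75. The part of background in this share was not tested further.

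Wild-type RAD21 peaks were then divided by both partners. Of 24943 with CTCF and ZNF143, 99.3% were found in the knockout and 182 were not. Of 14092 with CTCF and no ZNF143, 96.5% were found. Of 518 with ZNF143 and no CTCF the share was 66.4% (62.2 to 70.5), and of 6006 with neither it was 73.8% (72.6 to 74.9). These sets differ in strength, with median fold enrichments of 20.2, 10.4, 6.87 and 7.001.

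Within the weakest quintile the shares at sites with CTCF were 86.4% (84.3 to 88.3) with ZNF143 and 89.0% (88.0 to 90.0) without. The order was the opposite when wild-type peaks with a local background above 5 times the median of their list were left out, with 93.5% (91.5 to 95.1) and 89.6% (88.6 to 90.6). At sites without CTCF the shares in this quintile were 58.8% (53.5 to 63.9) with ZNF143 and 64.6% (63.1 to 66.1) without, and 61.1% (55.7 to 66.4) and 65.2% (63.6 to 66.7) without the peaks of high background. In the next quintile they were 82.6% (75.5 to 88.3) and 88.4% (86.8 to 89.9). The intervals overlapped in each of these comparisons except that at CTCF sites without the peaks of high background.

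Some of the added knockout RAD21 peaks lay at CTCF sites that lacked RAD21 in wild type. Of 39002 wild-type CTCF peaks with a wild-type RAD21 peak, 98.3% had a knockout RAD21 peak. Of the 12968 without one, 41.6% (40.8 to 42.5) had a knockout RAD21 peak. Among the latter this share was 62.2% (58.7 to 65.6) at 781 sites with ZNF143 and 40.3% (39.4 to 41.2) at 12187 sites without. The CTCF peaks with RAD21 in the knockout alone were stronger at ZNF143 sites, with a median rank percentile of 44.6 against 23.5, and the part of strength in this difference was not tested. When wild-type RAD21 peaks of any deposited q were counted, the shares were 58.6% and 36.3%.

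Wild-type-only peaks stood close to other RAD21 peaks more often than shared ones. Summits of the same list lay within 1 kb for 17.7% (16.2 to 19.3) of wild-type-only peaks and 6.49% (6.26 to 6.73) of shared wild-type peaks. In the knockout list the shares were 11.9% (11.4 to 12.5) of knockout-only and 7.60% of shared peaks. Within 300 bp they were 9.88% and 2.40% in wild type, and 6.37% and 2.64% in the knockout. Median distances to the nearest summit of the same list were 11332 bp (10659 to 12265) for wild-type-only and 15337 bp for shared peaks in wild type. In the knockout they were 13080 bp for knockout-only and 12518 bp for shared peaks. With lists of equal length the medians were 8085 bp for wild-type-only, 16142 bp for shared wild-type and 19911 bp for knockout-only peaks. Wild-type-only peaks also neighboured each other. The nearest summit belonged to another wild-type-only peak for 14.0% (12.6 to 15.4) of them and for 4.81% of shared peaks, against 5.31% in the whole list. For the knockout the shares were 28.3% (27.5 to 29.0) of knockout-only and 23.2% of shared peaks, against 24.4%. The wild-type values include the crowded windows described next and were not recomputed without them.

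A few crowded windows held some of the wild-type-only peaks. The window chr10:42300001-42400000 had 44 wild-type and 13 knockout RAD21 peaks, and 34 of the former were wild-type only. Of these 34, 25 lay at a wild-type CTCF peak, 2 at a knockout CTCF peak and 26 at a ZNF143 peak. Their median distance to the next summit was 201 bp, their median fold enrichment 3.02 and their median local background 12.8 reads, against 0.347 in the whole list. The window chr6:58700001-58800000 had 16 wild-type-only peaks, all at wild-type CTCF and ZNF143 peaks and 14 at knockout CTCF peaks, with a median background of 15.1 reads. Another window, chr7:61900001-62000000, also held 16. The 6 fullest windows together held 105 wild-type-only peaks (4.34%), of which 74.3% lay at wild-type CTCF, 26.7% at knockout CTCF and 72.4% at ZNF143. Among the remaining wild-type-only peaks the shares were 25.6% at wild-type CTCF and 12.1% at ZNF143. Over all wild-type-only peaks 8.02% had a local background above 5 times the median of the list, against 0.946% of shared peaks. The part of that background in these peaks was not tested.

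Over all windows of 100 kb, most that held a peak of 1 list alone held no other of its kind. Wild-type-only peaks fell in 1961 windows, of which 88.3% held exactly 1, and 346 of these peaks (14.3%) were in 59 windows with 3 or more. Knockout-only peaks fell in 10093 windows. Of these, 7402 (73.3%) held exactly 1, and 714 windows with 3 or more held 2494 peaks (18.0%). The 6 windows with most knockout-only peaks had 54 of them (0.390%). The fullest were chr2:89800001-89900000, with 11 knockout-only among 29 knockout peaks, and chr11:50700001-50800000, with 10 among 15.

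Chromosomes 13 and 16 stood apart in the knockout list. Of the knockout peaks on chromosome 13, 32.9% (30.6 to 35.3) were absent from wild type, and on chromosome 16 it was 30.9% (28.9 to 33.0). The other 21 chromosomes ranged from 19.87% on chromosome 9 and 19.90% on chromosome 8 to 26.8% on chromosome 3. The share of wild-type peaks absent from the knockout was lowest on chromosome 13, at 3.33% (2.34 to 4.58), and highest on chromosome 21, at 8.89% (6.69 to 11.5). Local background moved with these shares only in part. Its median ratio at shared sites, knockout to wild type, was 3.62 on chromosome 13 and 3.50 on chromosome 16, against 2.95 over all pairs and 2.55 on chromosome 8. Over the 23 chromosomes the Spearman correlation with this ratio was 0.41 for the knockout share and -0.63 for the wild-type share, as a description of chromosomes that share 2 libraries. For CTCF, chromosome 13 also had the highest share of knockout peaks absent from wild type, 30.2%, and chromosome 8 the lowest, 16.2%, whereas chromosome 16 had 22.8%. Whether the number of copies of a chromosome differs between the cells was not tested. Without chromosomes 13 and 16, chosen for their high shares, the share of knockout peaks absent from wild type was 23.9%.

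**Figure D5:**
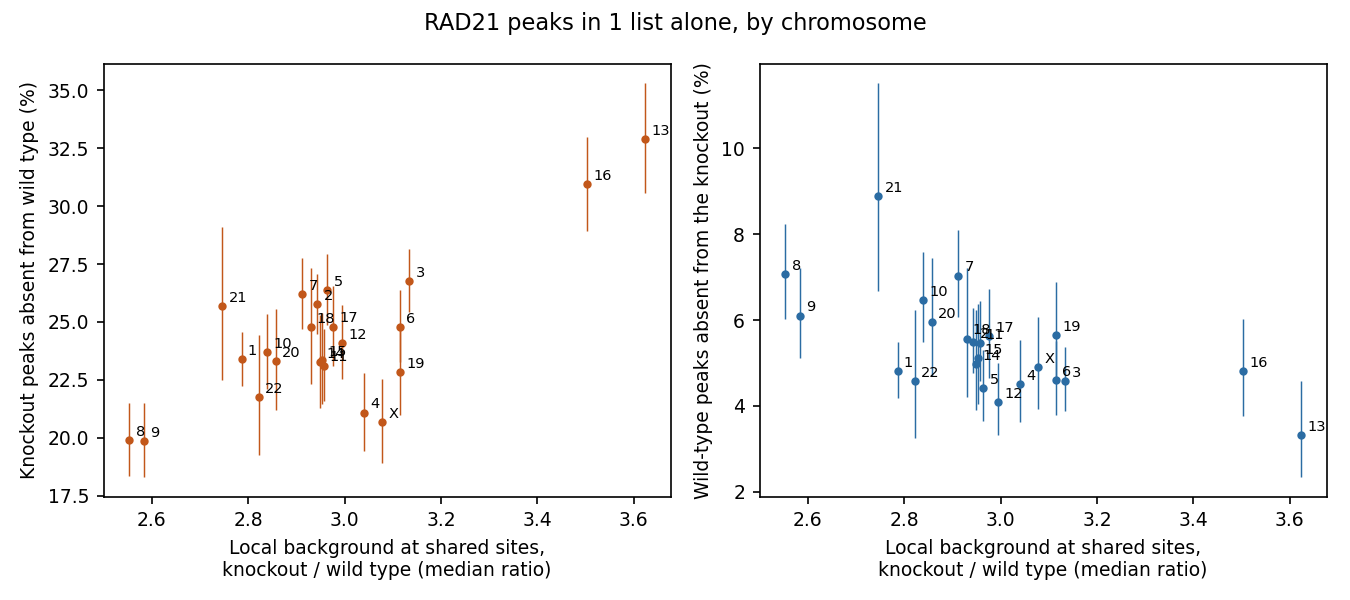
Share (%) of knockout RAD21 peaks absent from wild type (left) and of wild-type RAD21 peaks absent from the knockout (right) on each chromosome, with 95% intervals, against the median knockout to wild-type ratio of local background at shared sites. Chromosomes 13 and 16 have the highest ratios, 3.62 and 3.50, and the highest knockout shares, 32.9% and 30.9%.

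The strongest sites of 1 genotype alone were of different kinds. The wild-type-only peak with the highest fold enrichment, 13.95 with 16 reads at its summit, was at chr6:69685111-69685188, and the nearest knockout summit was 7011 bp away. The next was chr4:16916006-16916061, with 13.7 and 18 reads, 2489 bp from a knockout summit. Neither lay at a CTCF or ZNF143 peak. Another, chr8:86452567-86452611, had a fold enrichment of 12.4 and 14 reads and lay at CTCF peaks of both genotypes, 76994 bp from the nearest knockout RAD21 summit.

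The strongest knockout-only peaks all lay at CTCF peaks of the knockout and at no wild-type CTCF or ZNF143 peak. The peak at chr15:89207783-89207898 had a fold enrichment of 19.9 and 32 reads, and the nearest wild-type summit was 7026 bp away. The peaks at chr12:9531302-9531401 and chr11:125225206-125225338 both had 19.4, with 32 and 30 reads. In wild type each of these had a peak below the threshold, of 5 reads, with its summit 12 and 18 bp away. At these positions RAD21 and CTCF were thus both listed in the knockout, while wild-type RAD21 was absent or under the threshold.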

How the data were processed

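ChIP-nexus peak lists were used as the authors deposited them, 1 per library, in hg19. The submitters' processing notes name cutadapt 2.10, Bowtie2 2.3.5.1, SAMtools 1.12, MACS2 2.2.7.1 and deepTools, without roles or settings. The deposited columns hold a score, a fold enrichment (a ratio), −log10 p and −log10 q. The score equals the whole part of 10 times −log10 q for at least 99.9% of peaks in each list used and was not used. Python 3.11.15, numpy 2.4.6, pandas 2.3.3 and scipy 1.17.1 were used to compare peaks by overlap. Summit counts and local background were solved from fold enrichment and −log10 p, which they gave back within 0.002 for 100% of peaks. Shares carry exact Clopper-Pearson intervals and medians order-statistic intervals, for counting error only. The overlap and interval code was tested on simulated data. Peaks were named as the 3 strongest of each class, the 2 largest shifts in the top quartile of both lists and the 2 fullest windows; a tied window was added after its values were seen. The members and these lists were chosen with earlier results of these data known. The reference tables at hand are of another build, so genes and sequences at the peaks were not used here. The 2 lists taken after auxin treatment were not analysed here.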

Additional observations from a re-analysis of the deposited data

Results flagged for a closer look

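RAD21 peaks were also listed outside the chromosomes compared, on chromosome Y, mitochondrial DNA and unplaced sequences. There were 531 such peaks in wild type and 638 in the knockout. They entered no comparison.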

How the results depend on the processing

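No paired analysis was possible because each group held 1 library, and for the same reason no library could be left out. The alternatives were run on the shares kept and absent, the shift and the partner shares. Of 67 values, 15 stayed within the counting interval and 52 moved. The order of the classes at CTCF changed with 1 list: knockout-only peaks exceeded wild-type-only peaks (61.3% against 27.7%) but not with the 0 h degron CTCF list. Requiring a reciprocal overlap of 50% gave 85.1% kept, 31.8% of knockout peaks absent from wild type and a shift of 7 bp, with shared, wild-type-only and knockout-only peaks at CTCF in 91.5%, 52.5% and 67.0% of cases and at ZNF143 in 62.3%, 19.4% and 11.7%. Summits within 50 bp gave 93.1% kept and 25.4% absent, 40.0% and 62.5% of wild-type-only and knockout-only peaks at CTCF, and 23.9% and 10.6% at ZNF143. Without a q threshold 92.3% were kept and 20.9% absent, CTCF shares were 87.7%, 24.6% and 59.1%, and 13.1% of wild-type-only peaks lay at ZNF143. A −log10 q of at least 10 gave 98.5% kept, 28.8% absent and a shift of 7 bp, CTCF shares of 90.1%, 32.8% and 71.7% and ZNF143 shares of 51.0%, 18.6% and 7.34%. Lists of equal length gave 87.8% kept, 12.5% absent, CTCF shares of 91.5%, 44.1% and 77.0% and ZNF143 shares of 60.5%, 22.8% and 7.81%. Without peaks at the ceiling 27.8% were absent and 57.7% of shared peaks lay at ZNF143. With the other genotype's CTCF list the CTCF shares were 95.5%, 33.3% and 38.6%, and with the 0 h degron list 65.3%, 8.85% and 6.10%. With the 0 h degron ZNF143 list, 43.5% of shared and 9.29% of knockout-only peaks lay at ZNF143. Chosen after seeing the data, leaving out the 6 crowded windows gave 94.9% kept, 25.6% of wild-type-only peaks at CTCF and 12.1% at ZNF143, and leaving out chromosomes 13 and 16 gave 23.9% absent. Both were picked for their many peaks of 1 list alone, so the first raises the share kept and the second lowers the share absent by construction. The alternatives for width, neighbour distance and local background were also chosen after seeing the data. The cause of each move was not tested. Depth limits what absence means: in wild type, 5 summit reads over a background of 0.164 reads gave a −log10 q of 4.71, under the threshold.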

Other observations

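The ranks of shared RAD21 sites also moved by chromosome. The median change in rank percentile, knockout minus wild type, was 11.8 points on chromosome X and 10.2 on chromosome 4, and -7.75 on chromosome 3. The median wild-type local background was 0.244, 0.246 and 0.422 reads at the shared sites of these chromosomes. The median ratio of background, knockout to wild type, was 3.08, 3.04 and 3.13. The share of knockout peaks at the ceiling was 4.29%, 4.48% and 23.3%. The cause of the rank changes was not tested. The knockout peak exceeded the wild-type peak in width by a median of 41 bp on chromosome 13, 39 bp on chromosome 16 and 22 bp on chromosome 9.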
